A study of Mus musculus with 14 samples.

Results

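Messenger RNA of the enzymes that make phosphatidylcholine (PC) and phosphatidylethanolamine (PE), the main phospholipids of animal membranes, was followed in MC-38, a colon cancer line of the mouse. The 10 genes were chosen by symbol and were all found among the 24411 gene symbols of the count tables. They encode the kinases Chka, Chkb and Etnk1, the cytidylyl transferases Pcyt1a and Pcyt2, the phosphotransferases Chpt1 and Cept1, the decarboxylase Pisd, and the acyltransferases Lpcat1 and Lpcat3. Pcyt1a was picked for its lower level in cultures that received chromatin from neutrophil extracellular traps (NETs), which are webs of DNA cast out by neutrophils, so its values in that comparison are a description and carry no test.

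The 14 RNA sequencing libraries fell into 6 groups. In 4 groups of 2 libraries, MC-38 cells carrying green fluorescent protein had grown in the lungs of mice until day 30 and were recovered by flow sorting. The hosts were PAD4 knockout (KO) mice with laparotomy, KO mice without it (control), wild-type (WT) mice with laparotomy, and WT control mice. PAD4 is the histone-citrullinating enzyme that neutrophils use to release NETs, and laparotomy, the opening of the abdomen, was done on days 0 and 10. In culture, 3 libraries came from MC-38 cells given chromatin of NETs that neutrophils had released in vitro, and 3 from control MC-38 cells. Only the KO hosts lacked PAD4: the labels give the tumour cells themselves as WT. Padi4 stood at 2.05 to 30.0 CPM (counts scaled to 1000000 reads per library) in the tumour libraries, which does not settle the genotype of the host. For KO against WT hosts its log2 fold change was -3.16 with laparotomy and -0.53 without. For laparotomy it was 2.48 in WT hosts and -0.15 in KO hosts, and none of these passed after adjustment. Whether the libraries within a group are separate cultures or animals is not in the labels; the p-values therefore reflect only how these samples vary, and that variation may be technical.

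In the Kennedy pathway, choline or ethanolamine is phosphorylated by a kinase, activated to its CDP form by a cytidylyl transferase, and joined to diacylglycerol by a phosphotransferase. The cytidylyl transferase step is generally rate-limiting, and the enzyme encoded by Pcyt1a is switched on by binding to membranes that are short of PC. PE also arises in mitochondria, where the product of Pisd removes the carboxyl group of phosphatidylserine, and lysophosphatidylcholine acyltransferases then exchange the fatty acids of finished PC. Choline kinase alpha, encoded by Chka, is known to be raised in many tumours.

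Depth, as the sum of gene counts, was 10.8 to 31.3 M reads in the tumour libraries and 6.39 to 20.6 M reads in the culture libraries. Markers of epithelial cancer cells (8 genes, among them Epcam, Krt8 and Cdx2) were close to 0. They summed to 1.80 to 31.0 CPM in tumour libraries, highest in WT control library 2, and to 0.854 to 1.87 CPM in culture libraries. Epithelial markers were thus all but absent from cells labelled as a colon cancer line. WT control library 2 and KO control library 2 were the richest in markers of lung epithelium and endothelium, and WT control library 2 also in those of leukocytes, macrophages and neutrophils. Their 12 lung epithelium markers, led by surfactant genes, summed to 813 and 426 CPM, against 16.4 to 145 CPM in the other 6 tumour libraries and 15.3 to 19.3 CPM in culture, where 5 to 8 of the 12 were at 0. The 8 fibroblast markers had larger sums, 3599 to 11864 CPM in tumour libraries, highest in KO laparotomy library 2, against 152 to 181 CPM in culture libraries. Fewer cells of a type and less RNA per cell cannot be told apart in bulk RNA of this kind.

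The promoters of Pcyt1a, the gene chosen for its NET culture value, and of Chka, which carries out the step before it, are shown because the results return to both. Each is the plus strand of the 250 bases before the start of a RefSeq transcript on GRCm38.p6, at chr16:32430671-32430920 for Pcyt1a and chr19:3851523-3851772 for Chka, with capitals marking the motifs named after them.
Pcyt1a: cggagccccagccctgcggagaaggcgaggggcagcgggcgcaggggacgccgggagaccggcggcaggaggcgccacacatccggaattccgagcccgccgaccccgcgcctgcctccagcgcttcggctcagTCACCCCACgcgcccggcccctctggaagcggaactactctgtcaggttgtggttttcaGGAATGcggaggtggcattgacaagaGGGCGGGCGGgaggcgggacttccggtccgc
Chka: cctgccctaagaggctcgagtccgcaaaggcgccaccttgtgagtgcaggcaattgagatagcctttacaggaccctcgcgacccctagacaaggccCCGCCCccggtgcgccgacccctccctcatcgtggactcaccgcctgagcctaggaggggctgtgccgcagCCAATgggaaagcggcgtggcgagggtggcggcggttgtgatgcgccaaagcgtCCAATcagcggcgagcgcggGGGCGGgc
The searched motifs were GGGCGG for the GC box, TCACCCCAC for the core of a sterol regulatory element, CCAAT for the box of that name, and CATTCC for the TEAD motif, on both strands, and they were chosen after the sequences had been seen. The Pcyt1a window held the sterol element core beginning 116 bases before the start, a TEAD motif on the opposite strand at 57 bases, and overlapping GC boxes at 31 and 27 bases. These positions depend on the start chosen. In another Pcyt1a window (chr16:32430770-32431019) the core lay at 215 bases and the TEAD motif at 156 bases. A further Pcyt1a window (chr16:32430980-32431229) held none of the searched motifs. The Chka window held GC boxes at 153 bases on the opposite strand and at 8 bases, and CCAAT boxes at 82 and 28 bases, with neither of the other 2 motifs. Among all 32851 windows of this length, 32.7% held a GC box, 33.9% a CCAAT box, 12.6% a TEAD motif and 0.496% the sterol element core. A match describes letters and does not show that a factor binds there.

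The 10 genes differed widely in level. On the scale of CPM per kilobase of exon, Lpcat3 stood highest in control culture at 38.0 ± 0.951, followed by Pisd at 19.9 ± 0.975 and Cept1 at 19.5 ± 1.84 (SD, n = 3 each), which were within their spread of each other. Pcyt2 (15.3), Pcyt1a (12.5), Etnk1 (10.3), Lpcat1 (6.18), Chka (4.07) and Chpt1 (2.42) came next, each below the one before by more than their summed SDs. Chkb, the choline kinase whose loss causes muscular dystrophy in mice, was near the floor at 0.199 CPM per kilobase. Its level may be understated, because it overlaps a readthrough transcript described below. In NET culture, Pcyt1a was in the eighth place at 5.12 CPM per kilobase, below Chka at 6.10 and Lpcat1 at 6.71.

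**Figure D1:**
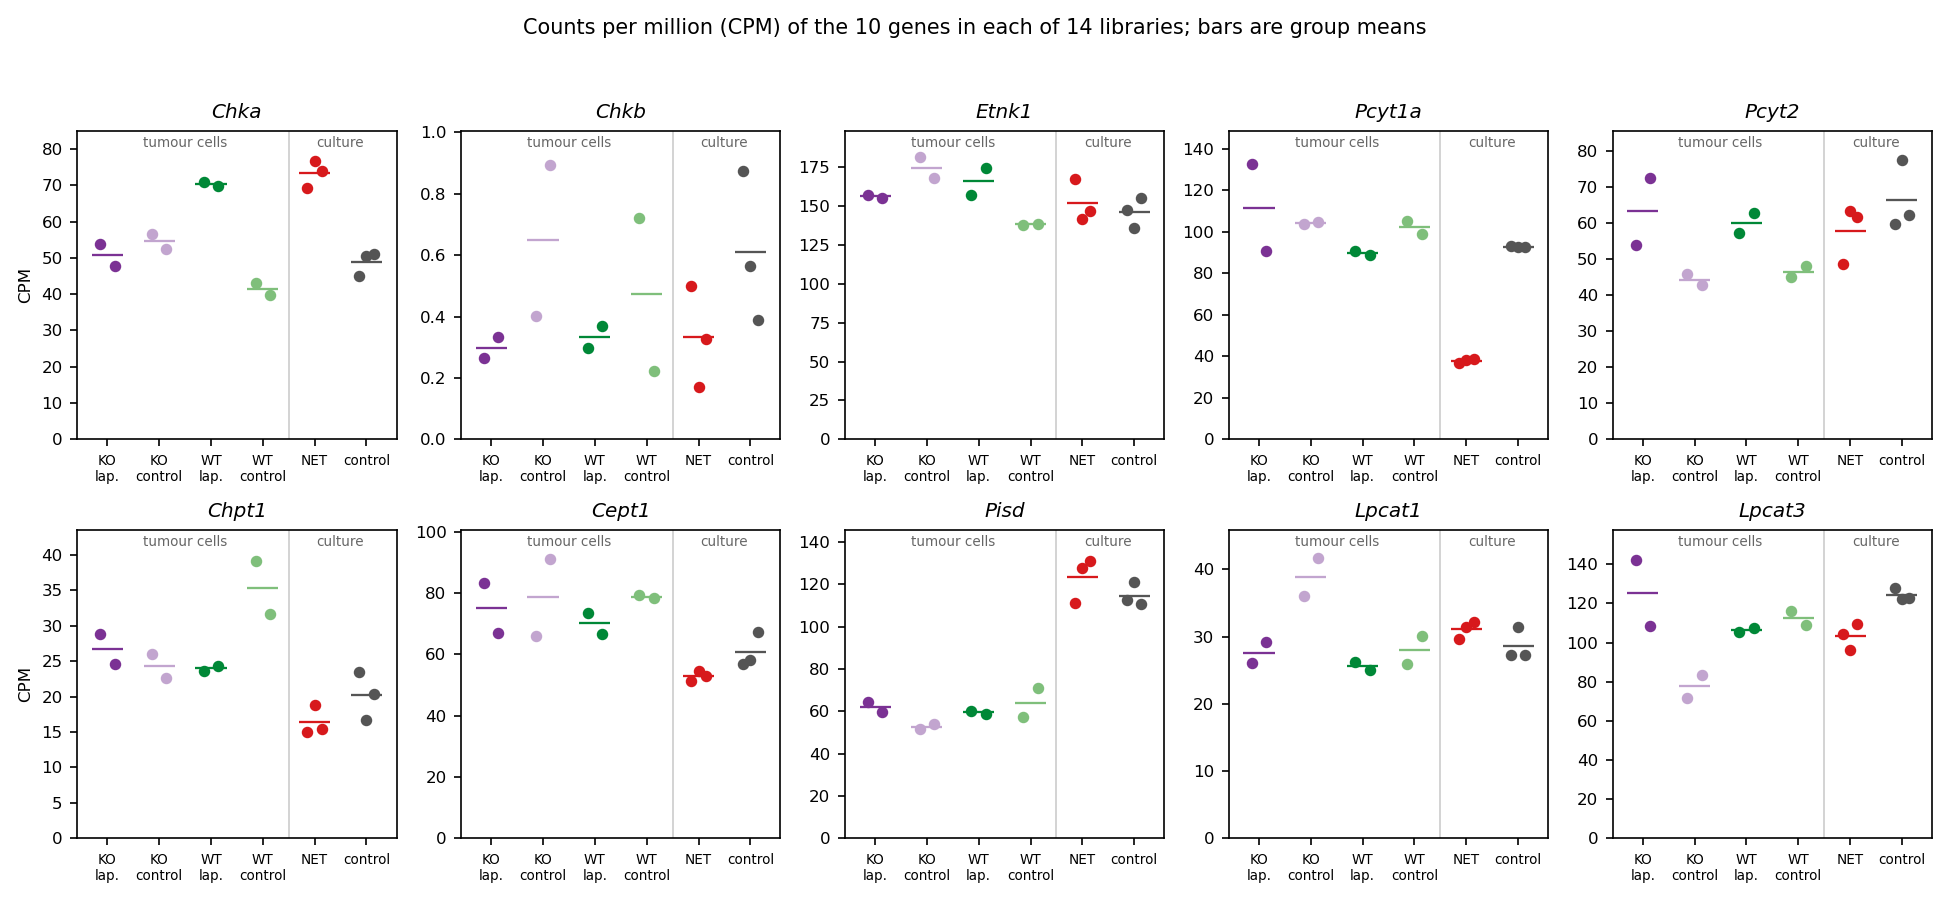
Level of the 10 genes in CPM (each panel has its own axis from 0) in all 14 libraries, with a point for each library and a bar for the group mean. Pcyt1a in the 3 NET cultures (36.8 to 38.5 CPM) lies under all 11 other libraries (88.6 to 133 CPM), and Pisd is lower in all 8 tumour libraries than in all 6 cultures.

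Across the 6 groups, the ratio between the highest and lowest group mean was 2.94 for Pcyt1a, which rests on the NET cultures it was chosen for; over the other 5 groups it was 1.24. Over all 6 groups, the ratio was 2.34 for Pisd, 2.15 for Chpt1, 1.77 for Chka, 1.62 for Lpcat3, and between 1.49 and 1.52 for Cept1, Pcyt2 and Lpcat1. For Etnk1, the kinase that starts PE synthesis from ethanolamine, it was 1.26. For Chkb the ratio was 2.17, but it rested on 1 to 24 reads per library and 109 reads in all. Chkb also shares 1552 of its 3061 exonic bases (50.7%) with an annotated readthrough transcript into Cpt1b. The readthrough symbol, ChkbCpt1b, drew 0 reads in every library. Counting can leave out reads that such records share, and how many Chkb lost in this way was not tested. No fold change is therefore given for Chkb.

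Pcyt1a, the rate-limiting cytidylyl transferase of PC synthesis (chromosome 16, 32430921 to 32475070, plus strand, GRCm38), was lower in every NET culture. It had 36.8, 38.4 and 38.5 CPM in NET cultures, against 93.1, 92.7 and 92.5 CPM in control cultures. The groups do not overlap, and the libraries within each group lie within a few CPM of each other. The log2 fold change was -1.31 ± 0.07 (SE), a fold of 0.404, which is the difference it was chosen for. Pcyt1b, its brain-enriched paralog, is a gene outside the 10; it had 13.3, 12.7 and 13.8 CPM in NET cultures, against 20.3, 20.1 and 19.5 CPM in control cultures. Its log2 fold change was -0.60 ± 0.11 (adjusted p = 0.000166, edgeR quasi-likelihood test with Benjamini-Hochberg adjustment over all genes), so both genes for this step stood lower in NET culture.

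Of the other members, 8 passed the filter on low counts in culture (Chkb did not), and 4 of these 8 passed the threshold of 0.05: Chka rose, and Lpcat3, Cept1 and Chpt1 fell. Among all 11753 genes tested, 54.1% passed in either direction, so a count of 4 in 8 is near the background. The median log2 fold change of the 8 was -0.09, against 0.0007 for all genes.

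Chka, the kinase for the first step of PC synthesis (chromosome 19, 3851773 to 3894369, plus strand), stood at 69.2, 76.8 and 73.9 CPM in NET cultures, against 45.0, 50.6 and 51.2 CPM in control cultures. Every NET library was above every control library. The log2 fold change was 0.56 ± 0.08 (adjusted p = 1.67e-05, edgeR), a fold of 1.48. The kinase of the CDP-choline branch was thus higher in the libraries for whose low Pcyt1a level that cytidylyl transferase had been chosen.

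Etnk1, the ethanolamine kinase (chromosome 6, 143167221 to 143232307), had 168, 142 and 147 CPM in NET cultures, against 148, 136 and 156 CPM in control cultures. Its groups overlap, and the log2 fold change of 0.04 ± 0.08 did not pass (adjusted p = 0.651, edgeR). Pcyt2, the cytidylyl transferase of the PE branch (chromosome 11, 120610087 to 120617936), had 48.6, 63.4 and 61.7 CPM in NET cultures, against 59.7, 77.5 and 62.1 CPM in control cultures. These values overlap too, and the log2 fold change of -0.22 ± 0.11 did not pass (adjusted p = 0.0932, edgeR), although it did with library totals as the scale (0.00550), with no filter on low counts (0.0192), without control library 1 (0.0433) and without NET library 2 (0.0444).

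Both phosphotransferases were lower by a small margin. Cept1, which accepts CDP-choline and CDP-ethanolamine (chromosome 3, 106502260 to 106547802), had 51.3, 54.7 and 52.8 CPM in NET cultures, against 56.9, 58.2 and 67.4 CPM in control cultures. The groups do not overlap, and the log2 fold change was -0.22 ± 0.08 (adjusted p = 0.0340, edgeR). Chpt1, which uses CDP-choline (chromosome 10, 88452745 to 88504073), had 15.0, 18.9 and 15.4 CPM in NET cultures, against 23.4, 16.7 and 20.3 CPM in control cultures. Here the groups overlap, and the log2 fold change was -0.33 ± 0.14 (adjusted p = 0.0486, edgeR).

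Both calls were lost under some alternatives. Cept1 missed the threshold with DESeq2 (adjusted p = 0.0651) and without control library 3 (0.233), NET library 1 (0.0646) or NET library 3 (0.156). Chpt1 missed it with RLE size factors (0.0516), with DESeq2 (0.0919), and without control library 1 (0.202), control library 3 (0.129), NET library 1 (0.0984) or NET library 3 (0.252).

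Lpcat3, which places polyunsaturated fatty acids in PC (chromosome 6, 124663027 to 124704418, plus strand), had 105, 96.0 and 110 CPM in NET cultures, against 128, 122.5 and 122.5 CPM in control cultures. No NET library reached a control library, and the log2 fold change was -0.27 ± 0.07 (adjusted p = 0.00205, edgeR). The last 334 of its 3268 exonic bases overlap Emg1 on the opposite strand, which rose in NET culture (0.20, adjusted p = 0.0310). Counted on the gene's own strand, Lpcat3 was lower to the same extent (-0.28, adjusted p = 0.00193). Lpcat1, which makes saturated PC and is abundant in lung alveolar cells (chromosome 13, 73467197 to 73516422), had 29.7, 31.4 and 32.1 CPM in NET cultures, against 27.2, 31.4 and 27.3 CPM in control cultures (0.10 ± 0.09, adjusted p = 0.368, edgeR).

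Pisd, the mitochondrial decarboxylase (chromosome 5, 32736301 to 32785646, minus strand), had 111, 128 and 131 CPM in NET cultures, against 113, 121 and 111 CPM in control cultures. Its groups overlap, and the log2 fold change of 0.09 ± 0.07 did not pass (adjusted p = 0.285, edgeR). Its value is uncertain, because the mouse genome holds the copies Pisd-ps1 (chromosome 11) and Pisd-ps2 (chromosome 17). They drew 2452 to 14775 and 480 to 3291 reads per library, against 636 to 2411 for Pisd itself, and counting can split reads between such copies. In the comparison of NET with control culture, neither copy passed (log2 fold changes of 0.03 and 0.15).

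**Figure D2:**
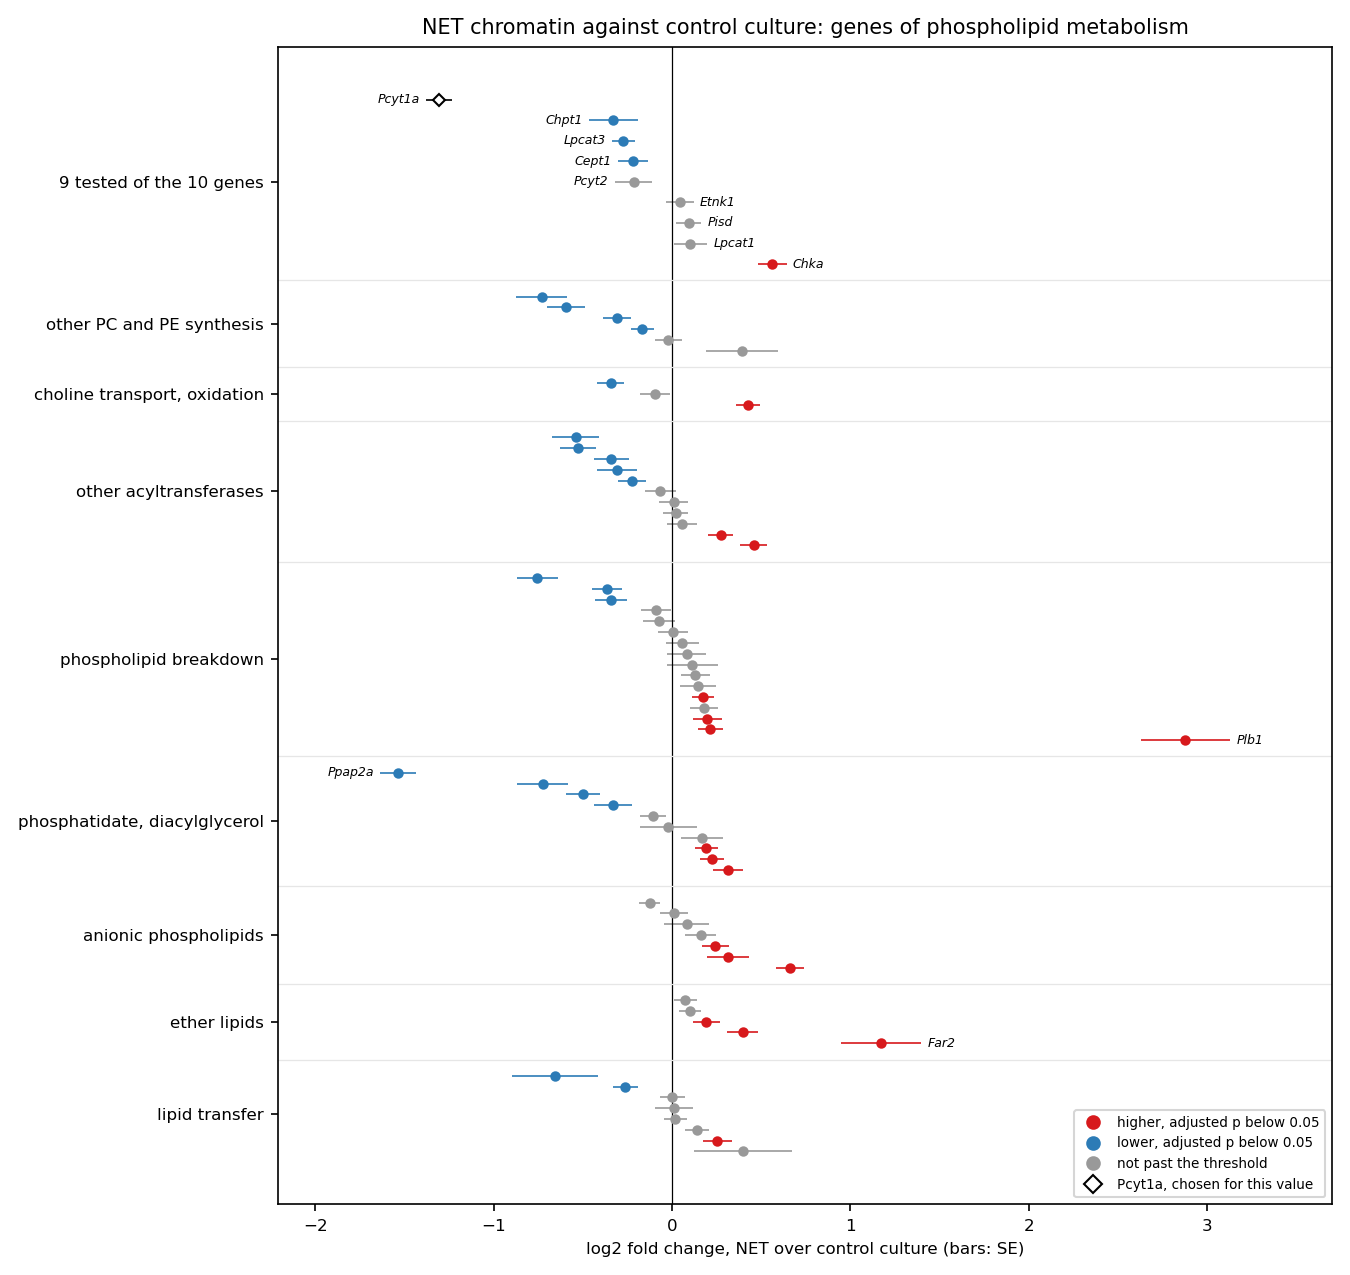
Log2 fold change of NET over control culture, with its SE, for the 9 members tested in culture and for the other genes of each pathway list; red (higher) and blue (lower) marks passed the adjusted threshold, grey ones did not, and the open diamond is Pcyt1a, which was chosen on this value. Chka lies to the right at 0.56, and Lpcat3, Cept1 and Chpt1 lie to the left between -0.22 and -0.33.

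Genes around the pathway were read from 8 lists, which held 77 other genes of the count tables. In NET culture, 66 of them were tested, of which 17 rose and 19 fell, shares close to the 26.3% and 27.8% of all genes, and their median log2 fold change was 0.02. All adjusted p-values in these paragraphs are edgeR's over all genes.

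Among other genes of PC and PE synthesis, 4 of 6 tested genes fell and none rose. Besides Pcyt1b, they were Phospho1, a phosphatase for phosphocholine and phosphoethanolamine (-0.73 ± 0.14, adjusted p = 0.000373), and the phosphatidylserine synthases Ptdss2 (-0.31 ± 0.08, 0.00337) and Ptdss1 (-0.17 ± 0.07, 0.0414). Of 3 tested genes of choline transport and oxidation, Aldh7a1, a betaine aldehyde dehydrogenase, rose (0.43). The choline transporter-like gene Slc44a2 fell (-0.34), and Slc44a1 had a log2 fold change of -0.10 that did not pass.

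Of 10 tested genes that supply phosphatidate and diacylglycerol, 3 rose and 4 fell. The largest change was in Ppap2a, a lipid phosphate phosphatase, with 16.6, 13.4 and 17.4 CPM in NET cultures, against 49.3, 43.4 and 46.6 CPM in control cultures. No library of one group reached the other, and its log2 fold change was -1.54 ± 0.10 (adjusted p = 7.54e-09). Lpin1, a phosphatidate phosphatase (-0.50), and Ppap2b, a relative of Ppap2a (-0.72), also fell.

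Breakdown genes moved both ways, with 4 of 16 tested higher and 3 lower. Plb1, a phospholipase B, had 6.26, 7.82 and 6.19 CPM in NET cultures, against 1.09, 0.647 and 0.932 CPM in control cultures. These low levels do not overlap, and the log2 fold change was 2.88 ± 0.25 (adjusted p = 1.16e-07). The phospholipase D gene Pld1 (-0.76) and the lysosomal phospholipase Pla2g15 (-0.36) fell. Among 11 other lysophospholipid acyltransferases tested, 2 rose, including Lpcat4 (0.46), and 5 fell, including Lclat1 (-0.53) and Agpat2 (-0.54).

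For the anionic phospholipids, 3 of 7 tested genes rose and none fell. They were Pgs1, which starts phosphatidylglycerol synthesis (0.66 ± 0.08, adjusted p = 2.33e-06), the cardiolipin-remodelling tafazzin gene, Taz in these tables (0.24), and Tamm41, which makes CDP-diacylglycerol in mitochondria (0.31). Of 5 tested genes of ether lipid synthesis, 3 rose and none fell: the fatty acyl-CoA reductases Far2 (1.17) and Far1 (0.40), and Tmem189, the plasmalogen desaturase (0.19). Of 8 tested lipid transfer genes, Prelid1 rose (0.25), and the phosphatidylinositol transfer gene Pitpnb (-0.26) and the PC transfer gene Pctp (-0.66) fell. With library totals as the scale, the median of all genes moved by -0.156, and 1640 genes rose and 4777 fell, against 3093 and 3270 on the TMM scale; 1 anionic gene then rose and 1 fell, 2 ether lipid genes rose and none fell, and the PC and PE synthesis list still had 4 genes lower. On that scale the supply list had 0 higher and 5 lower, breakdown 1 and 5, the acyltransferases 1 and 6, choline genes 1 and 2, and lipid transfer 0 and 2.

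Leukocyte markers were also higher in NET cultures. The 10 pan-leukocyte markers summed to 14.4 to 15.3 CPM in NET cultures, against 3.06 to 4.13 CPM in control cultures. The 12 monocyte and macrophage markers summed to 148 to 170.1 CPM in NET cultures, against 82.3 to 103 CPM in control cultures. Their part in the results above was not tested. Ptprc, which encodes CD45, was at 0.626 to 1.74 CPM in NET cultures, against 0 to 0.109 CPM in control cultures. The 8 neutrophil markers summed to 15.8 to 17.2 CPM in NET cultures, against 9.38 to 9.74 CPM in control cultures, with 2 of the 8 at 0 in NET cultures and 4 to 6 at 0 in control cultures.

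In tumour cells, the question was whether surgery of the host, or its PAD4, moved these genes. No member passed the adjusted threshold in any of the 5 comparisons of hosts with edgeR. The background was low as well: 0.0547% of 14615 genes passed for laparotomy in WT hosts, 0.520% for laparotomy in KO hosts, 0.677% for the difference between these laparotomy effects, 0.116% for KO against WT control hosts and 0.0205% for KO against WT hosts with laparotomy. At an unadjusted p under 0.05 the members numbered 4, 3, 4, 5 and 1 of 10 in these comparisons, in that order, against 2753, 2293, 2803, 2388 and 1954 of all genes. With DESeq2, 1, 1, 2, 1 and 1 members passed, beside 8.42%, 5.51%, 8.24%, 5.58% and 4.21% of all genes. The background hung on single libraries: with edgeR, leaving out 1 library gave 0 to 512 genes for laparotomy in WT hosts (8 with all libraries; 512 without WT control library 1, and 0 without either laparotomy library), 0 to 138 in KO hosts (76 with all libraries; 0 without KO control library 1, 1 without KO laparotomy library 2) and 0 to 344 for their difference (99 with all libraries; 0 without WT laparotomy library 2, 344 without WT control library 1). The comparisons share libraries, and 2 libraries a group leave wide errors: the common coefficient of variation between libraries of a group was 0.278 among tumour libraries and 0.0633 among cultures.

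In tumour cells, Pcyt1a stood near its level in control culture. It had 133 and 90.5 CPM in KO hosts with laparotomy, 104 and 105 CPM in KO control hosts, 90.9 and 88.6 CPM in WT hosts with laparotomy, and 105 and 98.9 CPM in WT control hosts. Apart from the first of these, the libraries lie within a narrow band that includes the control cultures, and none comes near the NET cultures. The laparotomy effect on the log2 scale was 0.08 ± 0.16 in KO hosts (adjusted p = 0.853, edgeR) and -0.19 ± 0.16 in WT hosts (adjusted p = 0.599). KO minus WT, the laparotomy effects differed by 0.27 ± 0.23 (adjusted p = 0.563). KO against WT hosts gave 0.30 ± 0.16 with laparotomy (adjusted p = 0.470) and 0.03 ± 0.16 without (adjusted p = 0.946).

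Chka had 53.8 and 47.9 CPM in KO hosts with laparotomy, 56.7 and 52.4 CPM in KO control hosts, 71.0 and 69.7 CPM in WT hosts with laparotomy, and 43.1 and 39.8 CPM in WT control hosts. WT hosts with laparotomy gave the 2 highest tumour values and WT control hosts the 2 lowest. The laparotomy effect in WT hosts was 0.76 ± 0.12 on the log2 scale (adjusted p = 0.0757, edgeR); it passed with DESeq2 (9.50e-05), with no filter on low counts (0.0156) and without WT control library 1 (0.0376). In KO hosts it was -0.12 ± 0.12 (adjusted p = 0.697), and the difference between the effects was -0.88 ± 0.17 (adjusted p = 0.0640; 0.00229 with DESeq2 and 0.0295 with no filter). WT control hosts also held the library richest in lung markers and WT hosts with laparotomy the 2 poorest, at 16.4 and 25.9 CPM. In this comparison all 11 monocyte and macrophage, 10 pan-leukocyte, 10 endothelium and 7 neutrophil markers tested had fold changes below 0. Their sums in WT hosts with laparotomy, against WT control hosts, were 96.8 and 107 against 358 and 1562 CPM for macrophages, 65.6 and 88.5 against 117 and 788 CPM for leukocytes, 53.7 and 54.2 against 134 and 549 CPM for endothelium, and 144 and 181 against 160.4 and 769.8 CPM for neutrophils. Of 8 fibroblast markers tested, 1 had a fold change above 0, and that list summed to 3599 and 4897 against 4986 and 6078 CPM. The part of these lists in the Chka values was not tested. With the lung epithelium markers as a covariate the effect in WT hosts was 0.59 ± 0.21 (adjusted p = 0.742). With KO against WT hosts, Chka gave -0.48 ± 0.12 after laparotomy (adjusted p = 0.165; 0.0469 with DESeq2) and 0.40 ± 0.12 without it (adjusted p = 0.192).

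Lpcat3 had 142 and 109 CPM in KO hosts with laparotomy, 71.7 and 83.4 CPM in KO control hosts, 105 and 108 CPM in WT hosts with laparotomy, and 116 and 109 CPM in WT control hosts. The KO control libraries were the 2 lowest of all 14. Its laparotomy effect was 0.68 ± 0.14 in KO hosts (adjusted p = 0.0901, edgeR; 0.00205 with DESeq2 and 0.0219 with no filter) and -0.08 ± 0.14 in WT hosts (adjusted p = 0.811). KO minus WT, the effects differed by 0.76 ± 0.20 (adjusted p = 0.113; 0.0176 with DESeq2). KO against WT control hosts gave -0.54 ± 0.14 (adjusted p = 0.164; 0.0269 with DESeq2).

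Among the remaining members, Lpcat1 had 26.0 and 29.1 CPM in KO hosts with laparotomy, against 36.1 and 41.6 CPM in KO control hosts. The groups do not overlap, and the log2 difference was -0.51 ± 0.15 (adjusted p = 0.172, edgeR). Pcyt2 had 54.0 and 72.4 CPM in KO hosts with laparotomy, against 45.8 and 42.8 CPM in KO control hosts (0.50 ± 0.16, adjusted p = 0.190). Its laparotomy effect in WT hosts was 0.36 ± 0.16 (adjusted p = 0.265). For Chpt1, WT hosts with laparotomy had 23.6 and 24.4 CPM, against 39.1 and 31.7 CPM in WT control hosts, which were the 2 highest libraries of all 14 (-0.56 ± 0.16, adjusted p = 0.161). Etnk1 had 181 and 168 CPM in KO control hosts, against 138 and 139 CPM in WT control hosts (0.34 ± 0.10, adjusted p = 0.196). For Cept1 and Pisd, no host comparison had an unadjusted p under 0.05.

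**Figure D3:**
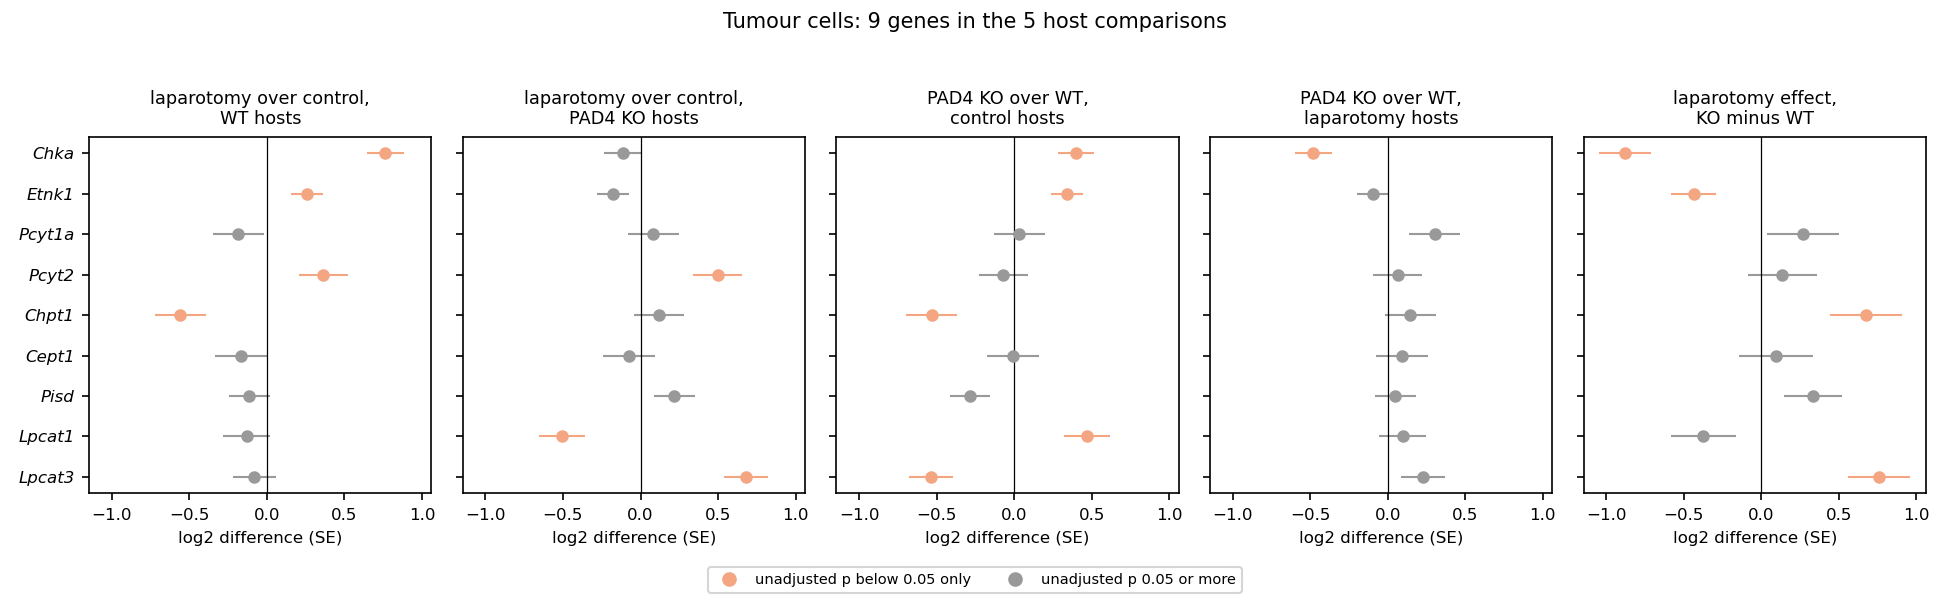
Log2 difference with its SE for 9 members (Chkb left out) in the 5 comparisons of tumour hosts; orange marks have an unadjusted p under 0.05, grey marks do not, and none passed after adjustment. Chka is highest for laparotomy in WT hosts (0.76) and lowest for the difference of the laparotomy effects (-0.88).

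**Figure D4:**
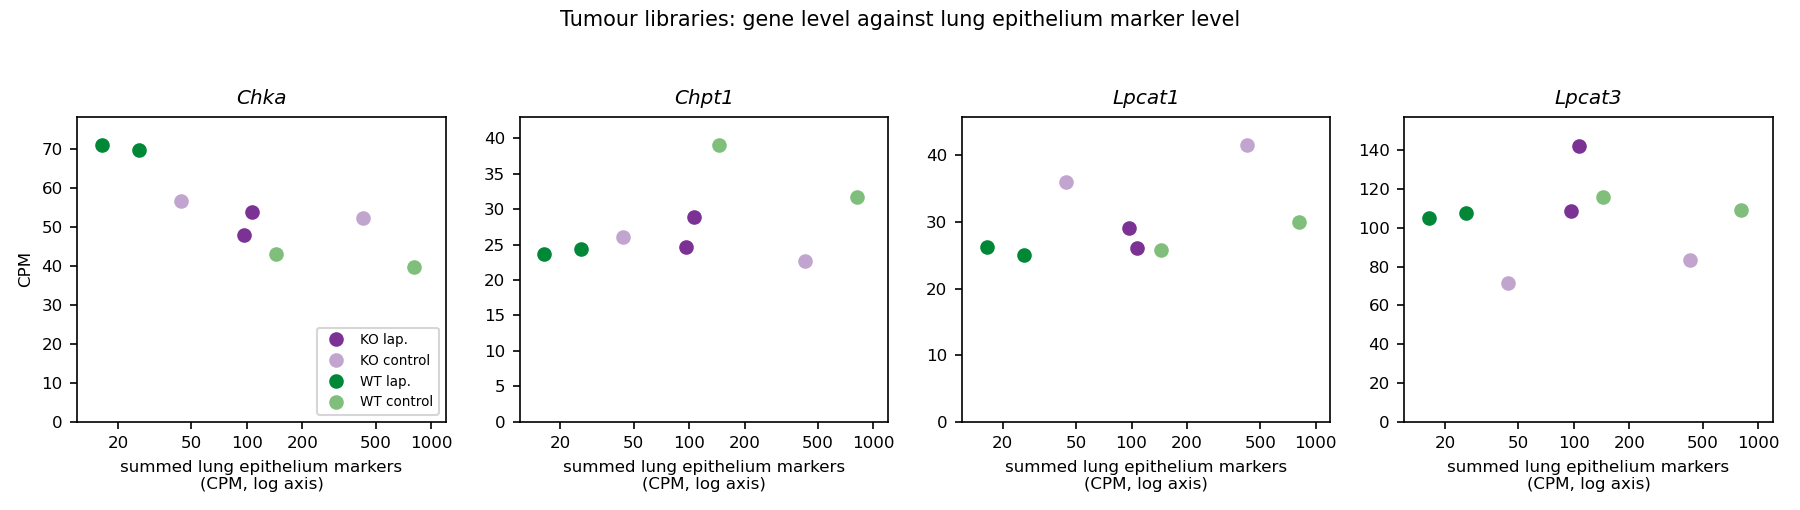
Level of Chka, Chpt1, Lpcat1 and Lpcat3 in CPM against the summed CPM of 12 lung epithelium markers (log axis) in the 8 tumour libraries, with 1 point a library and colour for the group. The 2 points of WT hosts with laparotomy lie at the far left (16.4 and 25.9 CPM) and WT control library 2 at the far right (813 CPM).

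Of the 77 surrounding genes, 69 were tested in tumour cells. Among these, Pla2g4a, the cytosolic phospholipase that frees arachidonate, was the only one past the threshold in a host comparison. It passed for laparotomy in KO hosts, where 0.520% of all genes tested passed. It had 42.8 and 58.5 CPM in KO hosts with laparotomy, against 11.7 and 11.4 CPM in KO control hosts. The groups lie far apart, and the log2 fold change was 2.12 ± 0.28 (adjusted p = 0.0320, edgeR). It missed the threshold without KO control library 1 (0.254), KO control library 2 (0.0749) or KO laparotomy library 2 (0.0944), with log2 fold changes of 1.85 to 2.16. No marker of the host-cell lists passed the threshold in the same comparison. All 11 tested monocyte and macrophage markers had fold changes above 0. The sums over that list were 447 and 278 CPM in KO hosts with laparotomy, against 112 and 313 CPM in KO control hosts. Fold changes above 0 were also found for 5 of 8 fibroblast and 5 of 10 pan-leukocyte markers. They were fewer for lung epithelium (5 of 12), neutrophils (1 of 7) and endothelium (0 of 10). The 8 fibroblast markers summed to 6512 and 11864 CPM in KO hosts with laparotomy, against 8950 and 5084 CPM in KO control hosts; the part of these markers was not tested. In WT hosts Pla2g4a had 64.7 and 44.9 CPM with laparotomy, against 49.4 and 30.9 CPM in control hosts. The difference between the laparotomy effects was 1.66 (adjusted p = 0.0886), so the effect is not shown to differ between hosts.

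Tumour cells were also set against control culture, taking the mean of the 4 tumour groups. Growth in the host, the fluorescent protein, sorting and host RNA all go with this comparison and cannot be told apart. It shares the control cultures with the NET comparison, so the 2 sets of values are not independent. Of the 10 members, 5 passed the threshold, 2 higher and 3 lower; among all 14421 genes tested, 73.3% passed, so this count is not above the background.

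Pisd had the clearest difference. It ran from 51.6 to 70.8 CPM over the 8 tumour libraries with a median of 59.1 CPM, against 113, 121 and 111 CPM in control cultures. The groups do not overlap, and the log2 fold change was -0.95 ± 0.07 (adjusted p = 5.32e-08, edgeR), a fold of 0.518. Its copies were lower too, with log2 fold changes of -1.62 ± 0.08 for Pisd-ps1 (adjusted p = 4.32e-10) and -1.79 ± 0.08 for Pisd-ps2 (adjusted p = 3.90e-10). How reads were divided between Pisd and these copies was not tested.

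The other 4 differences were smaller, and the libraries overlap between the groups. Chpt1 (0.44 ± 0.12, adjusted p = 0.00567, edgeR) and Cept1 (0.31 ± 0.10, 0.0135) were higher in tumour cells, while Lpcat3 (-0.26 ± 0.08, 0.0104) and Pcyt2 (-0.33 ± 0.11, 0.0149) were lower. Without control library 2, Pcyt2 (adjusted p = 0.146), Chpt1 (0.0513) and Cept1 (0.0629) no longer passed, and only 2 members did. Setting aside the 2 tumour libraries richest in lung markers left the count at 5. Pcyt1a (0.13 ± 0.09, adjusted p = 0.201), Chka (0.12 ± 0.07, 0.145), Etnk1 (0.11 ± 0.07, 0.148) and Lpcat1 (0.05 ± 0.09, 0.641) did not pass; Pcyt1a did without KO laparotomy library 2 (0.00745).

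Of the surrounding genes, 70 were tested in this comparison, of which 17 were higher and 33 lower in tumour cells, with a median log2 fold change of -0.18, against 0.06 for all genes. Over all genes, 38.6% were higher and 34.7% lower. Other PC and PE synthesis genes gave 1 higher and 4 lower of 6 tested, led by Phospho1 (-2.84) and Pcyt1b (-1.60). Breakdown genes gave 3 higher and 10 lower of 16.

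**Figure D5:**
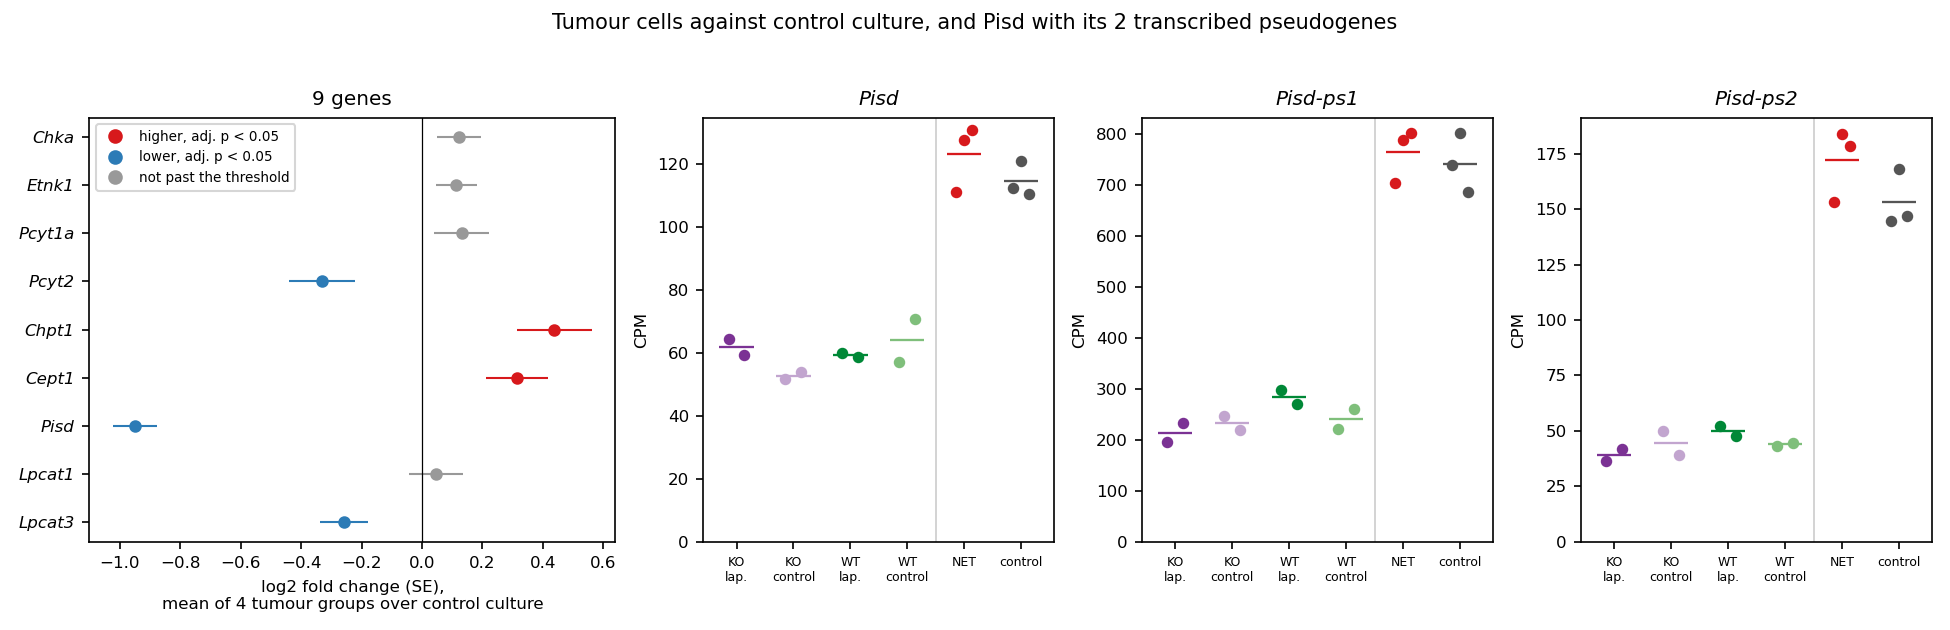
Left, log2 fold change with its SE of tumour cells over control culture for 9 members; right, CPM of Pisd and its copies Pisd-ps1 and Pisd-ps2 in all 14 libraries, each on its own axis from 0, with a point for each library and a bar for the group mean. On the left, red and blue marks passed the adjusted threshold. Pisd lies at -0.95, and all 3 genes are lower in every tumour library than in every culture.

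The genes whose pattern over the 14 libraries was most like that of Pcyt1a were found by the root mean square difference of log2 CPM after centring each gene. Among 10220 candidates, whose median difference was 0.693, the closest were 2810474O19Rik (0.160), Asb7 (0.170), Asap1 (0.184), Slc39a3 (0.191) and Slc39a6 (0.192). The closest members were Chpt1 (0.402, at rank 802) and Cept1 (0.419, at rank 966), and the farthest were Chka (0.818) and Pisd (1.00). The 14 libraries include the 3 NET cultures for which Pcyt1a was chosen, and the likenesses are a description.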

How the data were processed

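RNA sequencing counts were analysed for 14 libraries of MC-38 cells in 6 groups. The deposited values are whole-number counts of reads per gene symbol; per the submitters' processing notes, reads were handled with Trimmomatic and STAR on mm10, with versions, options and annotation not given in the sources used here. Results rest on the unstranded column of counts (the larger stranded one served as an alternative); 0 per-sample columns were left unused. Summary lines that name no gene entered neither library sizes nor tests. By them, unmapped reads were 4.00 to 11.5%, multimapping reads 6.14 to 9.25%, reads with no feature 12.1 to 24.0% and ambiguous reads 1.11 to 1.51% of all reads. The tables hold no molecular identifiers, so errors of counting assume independent reads.

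The test was the quasi-likelihood one of edgeR 4.0.16, run in R 4.3.3 (filterByExpr, TMM, glmQLFit with robust estimation, glmQLFTest) and Benjamini-Hochberg adjustment over all genes tested, at 0.05. The 6 culture libraries, the 8 tumour libraries and all 14 libraries were fitted apart, with 11753, 14615 and 14421 genes tested. Standard errors were derived from its F statistic. Levels are in CPM with TMM factors over all 14 libraries, with no count added; within a fit the same values differ by factors of 0.940 to 1.04, so fold changes need not equal ratios of the printed levels. Levels per kilobase use exon lengths of GENCODE vM21 on GRCm38, which also gave positions and overlaps. Values after ± are SDs for levels and SEs for log2 fold changes. Alternatives were RLE size factors, library totals, no filter, DESeq2 1.42.0, the strand-specific column, a replicate block, a lung epithelium covariate and leaving out each library. A block with crossed numbers and setting aside 2 libraries were added after seeing the data. Scripts were tested on simulated data.

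The members and lists were chosen with earlier results of these data known. Named genes are the 10 members, the 3 genes of each list with the smallest p for NET against control culture, any list gene past the threshold in a host comparison, the 5 genes most like Pcyt1a (log2 CPM with a prior count of 2, mean of at least 5 CPM), and copies and the larger overlapping genes of members. Besides the overlaps given above, Gm20671 shares 20.1% of the exonic bases of Pisd on the same strand. On the opposite strand, Dennd2d shares 24.7% of Cept1, C730034F03Rik 10.45% of Chkb, Sycp3 7.93% of Chpt1 and Slc51a 7.65% of Pcyt1a. Smaller overlaps are not named. Flvcr1 and Flvcr2 were not matched. Promoter sequences are from RefSeq and matched all 10 genes, with 14 windows.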

Additional observations from a re-analysis of the deposited data

Results flagged for a closer look

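Lpcat3 reads on the strand opposite to the gene, which no comparison uses, formed 23.0% of its strand-specific reads in NET cultures (22.0 to 24.1%), against 18.4% in control cultures (18.0 to 18.7%). The 3 NET libraries all lay above the 3 control libraries, which is why the value is given. Over whole libraries the same column held 1.09 to 1.20% of strand-specific counts. In tumours the share was 19.9% in KO hosts with laparotomy, 28.7% in KO control hosts, 24.7% in WT hosts with laparotomy and 22.1% in WT control hosts. Emg1 overlaps the end of Lpcat3 on that strand. In NET culture, Emg1 was higher (log2 fold change of 0.20) and Lpcat3 lower (-0.27). In control library 1, Emg1 had 908 reads on its own strand and 648 in the unstranded column, and Lpcat3 had 265 on that strand. In NET library 1 these counts were 834, 603 and 235. The part of Emg1 reads in this share was not tested.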

How the results depend on the processing

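Of 810 member values under alternatives, 746 kept their direction and side of the threshold, 14 lost a call, 17 gained one and 32 changed sign, all 32 among values that had not passed; the causes were not tested. Pcyt1a moved to -1.46 in NET culture with library totals, which also turned Etnk1 (-0.11), Pisd (-0.065) and Lpcat1 (-0.053) there, and Pcyt1a to -0.0047 for KO against WT control hosts. The lung epithelium covariate turned Cept1 (0.19), Pisd (0.12), Lpcat1 (0.13) and Lpcat3 (0.075) for laparotomy in WT hosts, Cept1 (-0.24) for the difference of the laparotomy effects, Cept1 (0.10) for KO against WT control hosts, and Cept1 (-0.13), Pisd (-0.10) and Lpcat1 (-0.064) for KO against WT hosts with laparotomy. Of the counts of members past the threshold, DESeq2 gave 2 for NET culture (edgeR 4), where it called 47.6% of all genes, and 1, 1, 2, 1 and 1 for the 5 host comparisons in the order and beside the shares of the report; no filter gave 1 for laparotomy in WT hosts, 1 in KO hosts and 1 for their difference (0 each with the filter), where 0.861%, 1.44% and 2.07% of all genes passed.

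Leaving out 1 library gave 2 to 5 members in NET culture, 0 to 1 for laparotomy in WT hosts and 2 to 6 for tumour cells against control culture. It turned Etnk1 in NET culture (-0.038 to 0.095). For laparotomy in WT hosts it turned Lpcat1 (-0.24 to 0.00088) and Pisd (-0.26 to 0.068), and in KO hosts Cept1 (-0.27 to 0.16), Chpt1 (-0.0086 to 0.25) and Pcyt1a (-0.23 to 0.31). For the difference it turned Cept1 (-0.11 to 0.32), Pcyt1a (-0.042 to 0.49) and Pcyt2 (-0.12 to 0.32). For KO against WT control hosts it turned Cept1 (-0.24 to 0.19) and Pcyt1a (-0.00095 to 0.080), and with laparotomy Cept1 (-0.071 to 0.22), Lpcat1 (-0.0032 to 0.18), Pcyt2 (-0.18 to 0.26) and Pisd (-0.0072 to 0.089).

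Replicates of the culture groups share numbers, and 4 of 6 libraries correlated best with their own number. The deviations of same-numbered libraries correlated weakly, at 0.0904, 0.0938 and -0.0259. The main fit did not treat them as pairs, but these values do not settle whether they are. With the replicate block, 5 members passed in NET culture, Pcyt2 among them (-0.20, adjusted p = 0.0347), 0 in each host comparison and 5 for tumour cells against control culture. In KO hosts, same-numbered libraries of the laparotomy and control groups correlated at -0.122; with crossed numbers 0 members passed. The other tumour pairs ran from -0.0657 to 0.357, the highest between WT control and KO control libraries.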
